A study of Homo sapiens with 6 samples.

Results

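The genes described here make cholesterol or respond to its level, and they were followed in HT-1080 cells after interferon gamma (IFNg). They were chosen by symbol: 29 genes of cholesterol synthesis, its control and sterol transport were listed, and 27 of these symbols were among the 17187 of the deposited gene table. SC5D and CH25H had no row under these symbols and are not analysed here as members. HT-1080, an established line grown from a human fibrosarcoma, was wild type in genotype per the labels and came from a cell repository. Total RNA was sequenced in 3 libraries from cells given recombinant IFNg at 10 ng/ml for 8 h and in 3 libraries from cells given PBS, the control. The comparison asks what this cytokine does to transcript levels in tumour cells, in a series on CD8+ T cells and tumour ferroptosis.

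Cholesterol is built from acetyl-CoA through mevalonate and squalene. When sterols run low in the endoplasmic reticulum, the escort protein SCAP carries the membrane-bound factors SREBP-1 and SREBP-2 to the Golgi, where proteases release them to activate synthesis genes. INSIG proteins hold SCAP back when sterols are plentiful. Oxysterols also act through LXR, which raises genes of sterol export.

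Values are normalised read counts, that is, whole reads divided by 1 size factor per library. They were not divided by length, so genes are compared between groups and not with each other. Reads recovered from these values and summed over the genes of the table were 59556948 to 74586440 per library in IFNg and 65639349 to 83501954 in control. In each group the library numbered 3 stood apart: counts of IFNg 3 differed from those of IFNg 1 and 2 with a chi-square per degree of freedom of 61.9 and 57.6, against 15.8 between IFNg 1 and 2. For control 3 these were 115 and 93.0, against 40.8 between control 1 and 2. Separate cultures for the libraries of a group are not stated in the labels, so p-values measure the spread between these samples only, which may be technical. Of 8 mesenchymal markers, 7 were measured, and they summed to 541668 to 566854 in IFNg and 581234 to 601925 in control. VIM was at 314888 or more in each library. S100A4 of the same list was low, at 19.5, 40.3 and 45.2 in IFNg and 56.8, 83.5 and 50.6 in control. Leukocyte markers (7 of 10 measured) summed to 153 to 181 in IFNg and 137 to 215 in control, and endothelial markers (3 of 3) to 23.8 to 45.5 in IFNg and 28.4 to 35.4 in control. Of 5 epithelial markers 3 were measured, and KRT8 and KRT18 gave nearly all of their sum of 29050 to 34115 in IFNg and 23328 to 31871 in control. IRF1, an early target of IFNg, was 28355 ± 2187 in IFNg and 624 ± 324 in control (mean ± SD, n = 3 each).

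After IFNg, INSIG2, HMGCS1 and STARD4 rose by 0.69, 0.64 and 0.58 on the log2 scale (1.61 times for INSIG2 and 1.58 times for HMGCS1 as a ratio of means), and 0 sterol genes fell in the test over all 6 libraries. These 3 genes encode a brake on SREBP, an early enzyme of the mevalonate pathway and a carrier of sterols. The 9 measured enzymes between squalene and cholesterol, and the genes of SREBP-1, SREBP-2 and SCAP, did not pass. The libraries numbered 3 were the lowest of both groups for 13 of the 27 members (48.1%), against 18.2% of all kept genes. Without these libraries MVK, IDI1, MSMO1 and INSIG1 were also called higher, and the exporter gene ABCA1 lower. MVK was not among the 13, as control 3 was its highest control. Calls without these libraries went from 11.1% to 29.6% of the members and from 4.32% to 9.53% of all kept genes. The test was limma on log2(value + 1), with p-values adjusted over 15546 kept genes by the Benjamini-Hochberg method at 0.05. All 27 members passed the filter on low values. Of these, 3 were higher and 0 lower, where 3.27% of all kept genes were called higher and 1.05% lower (4.32% in either direction). The same 3 members were called by edgeR, where 4.69% of genes were called (3.47% higher and 1.22% lower). DESeq2 called 4 members higher and 1 lower, where 6.9% of genes were called (4.67% higher and 2.23% lower). At an unadjusted p under 0.05 there were 7 members (25.9%), where 15.3% of all kept genes were. The median log2 difference was 0.027 over the members and -0.013 over all kept genes.

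**Figure D1:**
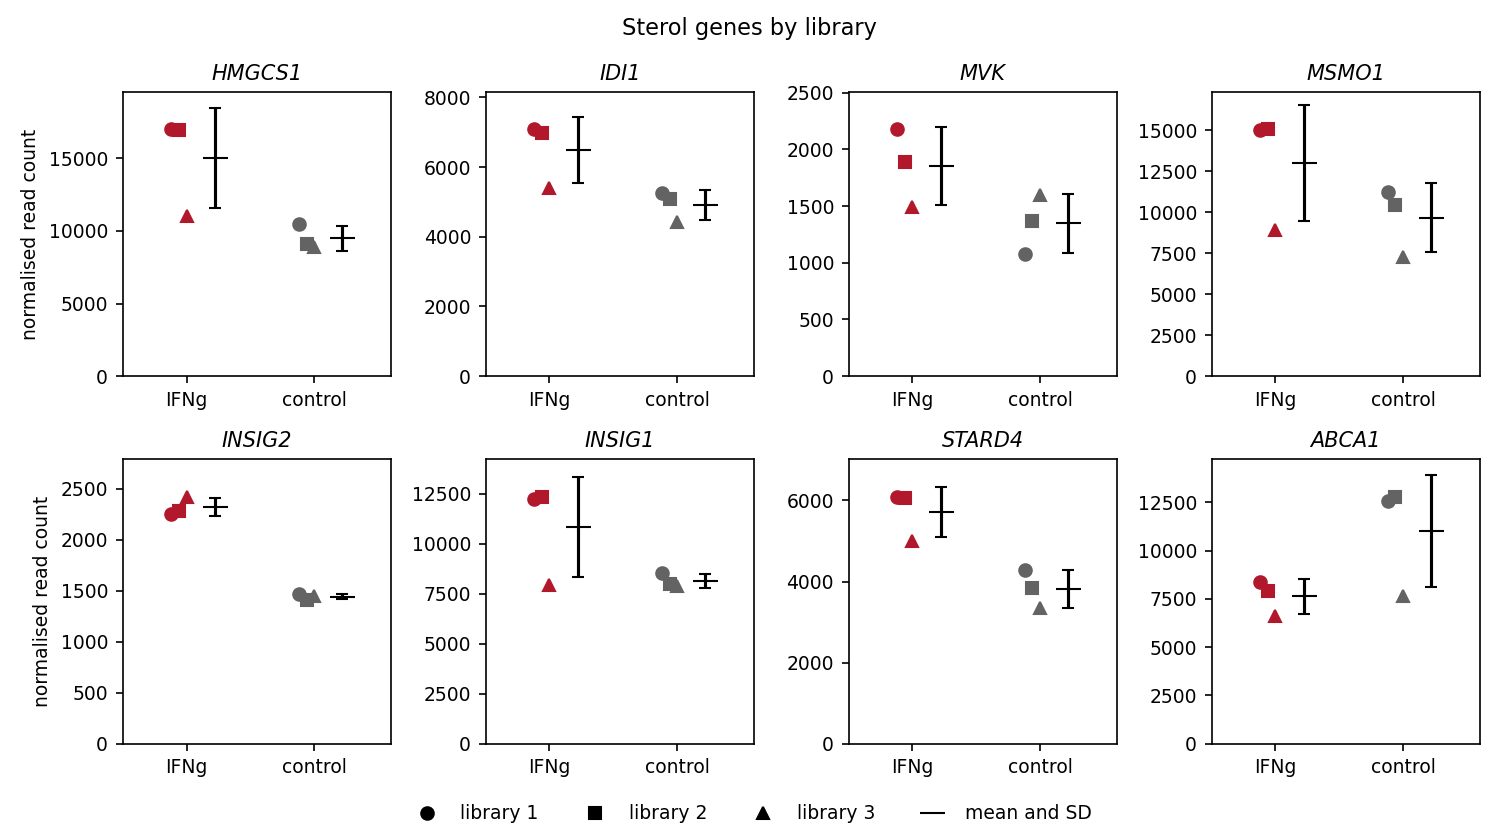
Normalised read count (y axis, linear from 0) of 8 sterol genes in the IFNg libraries (red) and the control libraries (grey), with 1 symbol for each library number and bars for the mean and SD of 3 libraries. The 8 genes are those called by limma without both libraries numbered 3. For INSIG2, STARD4, HMGCS1 and IDI1 every red point lies above every grey one. ABCA1 in control 3 (7649.7) lies far below controls 1 and 2 (12587 and 12805).

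INSIG2, which encodes an anchor of SCAP in the endoplasmic reticulum, had normalised read counts of 2255, 2281 and 2423 in IFNg 1 to 3, against 1464, 1412 and 1447 in control 1 to 3. The groups lay far apart, and library 3 stood at 107% of the mean of libraries 1 and 2 in IFNg and 101% in control. The log2 difference was 0.69 ± 0.12 (SE; limma adjusted p = 0.00413), and it passed without each library in turn (adjusted p up to 0.0291). STARD4, a carrier of sterols through the cytosol, had 6097, 6050.5 and 4998 in IFNg and 4288, 3829 and 3342 in control. All IFNg libraries exceeded all controls, and library 3 was the lowest of each group. Its log2 difference was 0.58 ± 0.12 (limma adjusted p = 0.0166), and removing IFNg 1, IFNg 2 or control 2 ended the call (highest adjusted p 0.107), as did a variance fit with no trend (0.173). HMGCS1 makes HMG-CoA, the precursor of mevalonate, and had 17011, 16968 and 11036 in IFNg against 10452, 9106 and 8879 in control. IFNg 3 lay only just above the highest control, while IFNg 1 and 2 were nearly equal and far above. The log2 difference was 0.64 ± 0.15 (limma adjusted p = 0.0341). It was 0.80 ± 0.08 without both libraries numbered 3 (adjusted p = 2.79e-05). Leaving out 1 of the libraries numbered 1 or 2, in either group, ended the call (highest adjusted p 0.175), as did a fit with no variance trend (0.287).

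The region around the start of these genes is shown because SREBP is known to act at promoters beside a CCAAT box, which binds the factor NF-Y. RefSeq (GRCh38.p14, a later build than the hg19 and GRCh37 named in the submitters' processing notes) gave windows from 250 bases before to 50 after the gene start for 23 of the 27 members. Shown are the 3 members that rose, INSIG1 as the close relative of INSIG2, and SREBF2. SREBF2 was the only member with an exact match of letters to the classical sterol response element SRE-1 in such a window. Each is written 5′ to 3′ on the strand of the gene, and capitals mark a CCAAT box on either strand or the sterol response element.
HMGCS1 (chr5:43313363-43313662, minus strand): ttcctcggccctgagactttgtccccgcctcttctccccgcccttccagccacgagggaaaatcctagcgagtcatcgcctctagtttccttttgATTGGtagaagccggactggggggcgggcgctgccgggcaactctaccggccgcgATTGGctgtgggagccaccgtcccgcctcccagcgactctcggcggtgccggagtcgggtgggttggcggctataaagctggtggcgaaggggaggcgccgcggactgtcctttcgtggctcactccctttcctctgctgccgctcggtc
STARD4 (chr5:111512486-111512785, minus strand): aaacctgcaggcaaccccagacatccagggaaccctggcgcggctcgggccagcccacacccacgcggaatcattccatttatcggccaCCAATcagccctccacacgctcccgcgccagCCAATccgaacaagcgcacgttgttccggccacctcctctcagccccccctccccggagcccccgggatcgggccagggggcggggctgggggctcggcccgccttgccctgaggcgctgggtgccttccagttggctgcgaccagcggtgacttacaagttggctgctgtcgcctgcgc
INSIG2 (chr2:118088221-118088520, plus strand): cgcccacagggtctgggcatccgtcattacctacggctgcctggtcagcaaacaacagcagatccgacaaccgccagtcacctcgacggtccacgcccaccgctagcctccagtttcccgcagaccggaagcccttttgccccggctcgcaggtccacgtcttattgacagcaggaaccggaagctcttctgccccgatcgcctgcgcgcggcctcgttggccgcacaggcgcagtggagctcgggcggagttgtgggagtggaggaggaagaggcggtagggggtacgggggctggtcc
INSIG1 (chr7:155297628-155297927, plus strand): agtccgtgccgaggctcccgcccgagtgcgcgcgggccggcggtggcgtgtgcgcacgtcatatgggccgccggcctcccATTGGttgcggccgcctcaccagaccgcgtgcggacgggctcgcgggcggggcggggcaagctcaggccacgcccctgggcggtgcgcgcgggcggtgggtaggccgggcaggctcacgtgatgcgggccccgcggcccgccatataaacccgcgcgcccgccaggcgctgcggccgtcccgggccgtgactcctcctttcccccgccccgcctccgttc
SREBF2 (chr22:41832855-41833154, plus strand): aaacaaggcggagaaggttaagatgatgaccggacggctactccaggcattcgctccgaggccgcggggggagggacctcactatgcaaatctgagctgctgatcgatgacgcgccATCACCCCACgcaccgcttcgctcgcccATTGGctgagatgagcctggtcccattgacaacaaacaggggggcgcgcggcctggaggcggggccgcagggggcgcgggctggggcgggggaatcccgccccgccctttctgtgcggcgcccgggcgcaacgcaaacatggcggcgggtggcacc
In the windows shown, HMGCS1 and STARD4 each held 2 CCAAT boxes, INSIG1 held 1, and INSIG2 held 0. HMGCS1 and INSIG2 had 2 windows each. The window shown was picked for the most matches to these motifs, ties going to the first listed. On both strands, CCAAT was found in at least 1 window of 16 of the 23 members (69.6%), against 43.2% of 10660 kept genes with a window and 34.6% of all 35116 windows. The classical sterol response element SRE-1, the first run of capitals in the SREBF2 sequence, was found in 1 member, SREBF2, at -134 from the gene start, against 0.0375% of kept genes with a window and 0.0456% of all windows. The looser form CACCNCAC, which overlaps SRE-1, was found in 2 members (ABCA1 and SREBF2; 8.70%), near the 8.28% of kept genes with a window, and in 5.98% of all windows. The motif TTCNNNGAA, known as the gamma-activated sequence, was found in 0 of the 23 members, against 8.89% of kept genes with a window and 7.66% of all windows. These are matches of letters in a short window only and carry no test.

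Among the 8 genes of the mevalonate pathway up to squalene, 1 (HMGCS1) rose and 0 fell, with a median log2 difference of 0.15. ACAT2, the thiolase that condenses acetyl-CoA, had 5196, 4747 and 4621 in IFNg and 4226, 4535 and 4109.6 in control, groups that did not overlap but missed the threshold (0.18 ± 0.10, limma adjusted p = 0.446). IDI1, the isomerase that readies isoprene units for joining, had 7090.0, 6986 and 5401 in IFNg against 5242, 5075 and 4429 in control. Its groups did not overlap either, library 3 was lowest in both, and the log2 difference of 0.39 ± 0.12 did not pass in limma (adjusted p = 0.112) but did in DESeq2 (0.0412). MVK, mevalonate kinase, had 2179.7, 1892 and 1493 in IFNg and 1076, 1370.5 and 1597 in control. Control 3 was the highest control and IFNg 3 the lowest IFNg library, so the groups overlapped (0.46 ± 0.18, adjusted p = 0.231).

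The other genes of this stretch did not pass. PMVK, the next kinase, averaged 439 ± 66.1 in IFNg and 432 ± 88.7 in control (mean ± SD, n = 3 each), with library 3 the highest of each group. MVD, the decarboxylase that follows, averaged 1841 ± 336 in IFNg and 1707 ± 368 in control. FDPS, which makes farnesyl pyrophosphate, averaged 11647 ± 513 in IFNg and 11023 ± 510.5 in control. FDFT1, squalene synthase and the first enzyme committed to sterols, averaged 12174 ± 2023 in IFNg and 12515 ± 2284 in control. Groups overlapped for all 4, with log2 differences from -0.04 (FDFT1) to 0.11 (MVD) and limma adjusted p of 0.747 or more.

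Of 10 listed genes from squalene to cholesterol 9 were measured, and 0 passed in either direction (median log2 difference 0.016). MSMO1, a sterol methyl oxidase, had 15035, 15075 and 8888 in IFNg against 11238, 10456 and 7282 in control. IFNg 1 and 2 were above every control, IFNg 3 was below controls 1 and 2, and control 3 was lowest of all (0.41 ± 0.20, limma adjusted p = 0.375). HSD17B7, a sterol ketoreductase, had 767, 763 and 835 in IFNg and 569, 718 and 622 in control, without overlap (0.31 ± 0.17, adjusted p = 0.445). SQLE, the epoxidase that oxidises squalene, averaged 6542 ± 976 in IFNg and 5962 ± 576 in control (0.13 ± 0.12, adjusted p = 0.703). TM7SF2, a sterol reductase gene read less often than the others here, averaged 222 ± 37.7 in IFNg and 267 ± 57.6 in control (-0.25 ± 0.28, adjusted p = 0.76).

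The other 5 enzymes of this stretch had log2 differences near 0. LSS, which closes the sterol rings, averaged 5628 ± 574 in IFNg and 5759.5 ± 701 in control. CYP51A1, lanosterol demethylase, averaged 13874 ± 1123 in IFNg and 13829.7 ± 2311 in control, and control 3 (11168) was the lowest of the 6 libraries. NSDHL, a decarboxylating sterol dehydrogenase, averaged 1771 ± 221 in IFNg and 1811 ± 139 in control. EBP, the sterol isomerase, and DHCR7, the reductase that yields cholesterol, had log2 differences of 0.0016 and 0.027. Over these 5 genes the limma adjusted p was 0.938 or more. Across both stretches, 13 of 17 measured synthesis enzymes had a positive log2 difference, against 7436 of 15546 kept genes. Of the 17, 1 passed (5.88%, against 4.32% of all kept genes), and the median was 0.080. Among the 13, EBP, CYP51A1, DHCR7 and PMVK were at 0.034 or less, and their signs changed in fits that left out single libraries.

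Of the 5 genes that control SREBP, 1 (INSIG2) rose and 0 fell. INSIG1, itself a target of SREBP, had 12240.0, 12360.3 and 7957 in IFNg and 8543, 7982 and 7909.6 in control. IFNg 1 and 2 were alike and well above all controls, whereas IFNg 3 lay among the controls, and the log2 difference of 0.39 ± 0.15 did not pass (limma adjusted p = 0.224). SREBF1, which encodes SREBP-1, had 4808, 4955 and 4930.0 in IFNg against 5156, 5504 and 6890.5 in control. It was the 1 member whose groups did not overlap with IFNg lower, and it did not pass (-0.25 ± 0.11, adjusted p = 0.341). SREBF2, which encodes SREBP-2, averaged 24167 ± 3488 in IFNg and 25611 ± 2309 in control (-0.09 ± 0.12, adjusted p = 0.798). SCAP averaged 6954 ± 669.9 in IFNg and 7935 ± 953 in control (-0.19 ± 0.11, adjusted p = 0.486).

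Among the 5 genes of sterol transport and LXR response, 1 (STARD4) rose and 0 fell over all 6 libraries. ABCA1, which loads cholesterol onto apolipoproteins at the cell surface and is a target of LXR, had 8376, 7906 and 6611 in IFNg against 12587, 12805 and 7649.7 in control. IFNg 1 and 2 were well below controls 1 and 2, but control 3 lay inside the IFNg range (-0.50 ± 0.17, limma adjusted p = 0.172). ABCA1 passed as lower in DESeq2 (adjusted p = 0.0283) and not in edgeR (0.133). MYLIP, an LXR target that marks lipoprotein receptors for breakdown, had 656, 708 and 504 in IFNg and 639.5, 969.6 and 857 in control, with overlap (-0.39 ± 0.21, limma adjusted p = 0.428). NPC1, which exports cholesterol from lysosomes, averaged 35105 ± 3331 in IFNg and 35906 ± 6142 in control (-0.02 ± 0.13, adjusted p = 0.966). ABCG1, another exporter, was barely read, with 18, 1 and 0 reads in IFNg 1 to 3 and 18, 1 and 6 reads in control 1 to 3, so that a difference was not detectable at this depth. In RNA from bulk cells, a lower level in every cell and fewer cells with a transcript cannot be told apart.

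**Figure D2:**
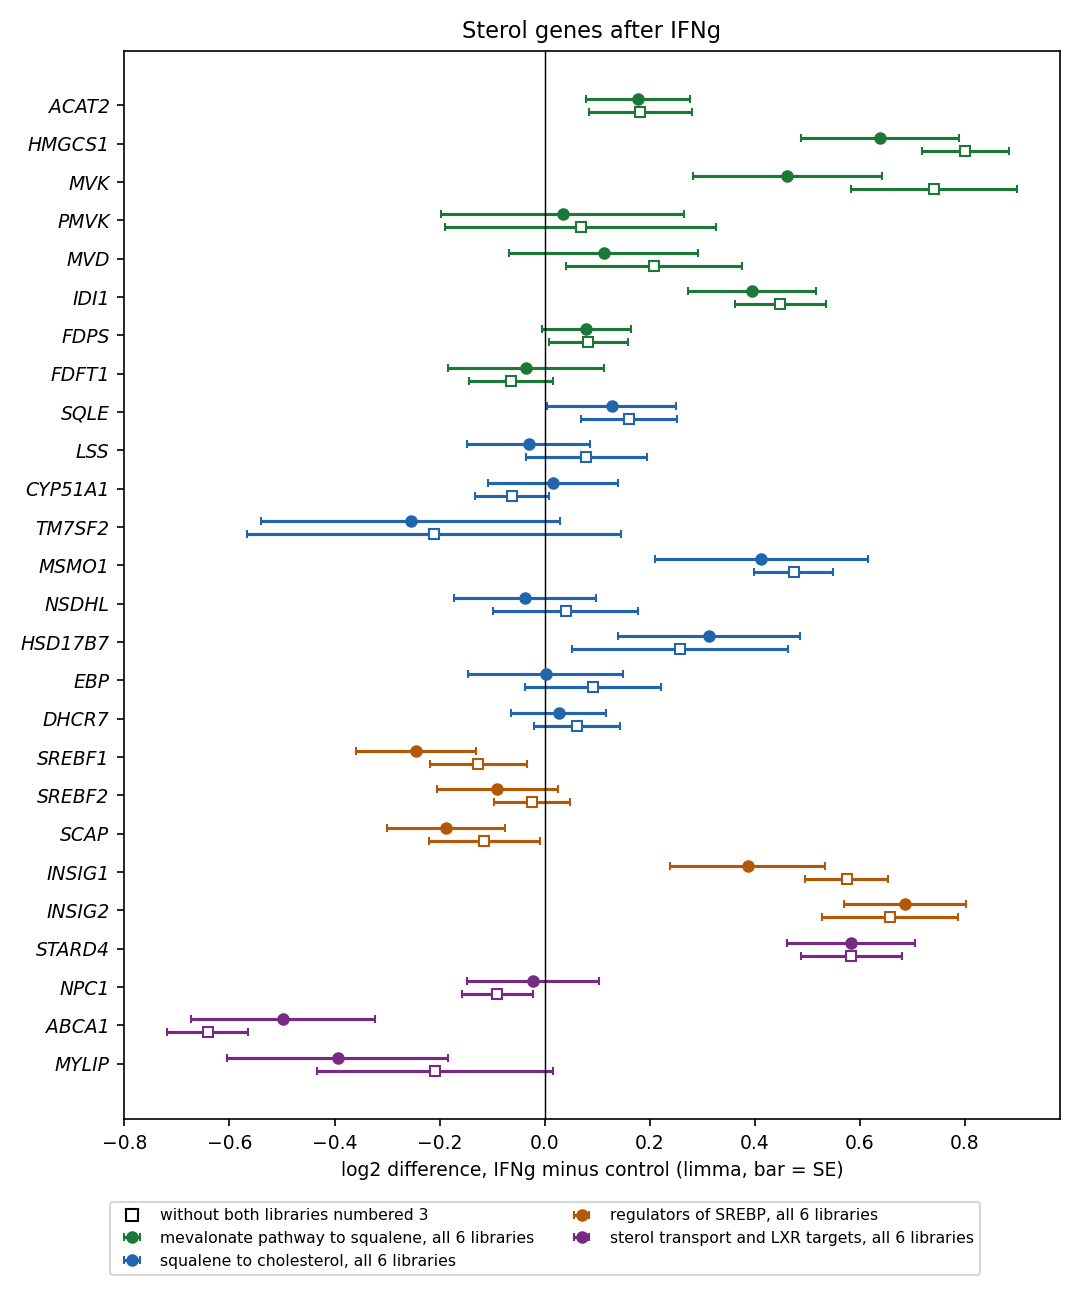
Log2 difference between IFNg and control with its SE (x axis, limma) for 26 sterol genes ordered by role (y axis), from all 6 libraries (filled circles) and without both libraries numbered 3 (open squares). INSIG2 and STARD4 barely move between the fits (0.69 and 0.66 for INSIG2), whereas HMGCS1, MVK and INSIG1 lie farther right and ABCA1 farther left without these libraries. ABCG1, with few reads, is left out of the plot.

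Groups did not overlap for 7 of the 27 members, 6 higher in IFNg (ACAT2, HMGCS1, IDI1, HSD17B7, INSIG2 and STARD4) and 1 lower (SREBF1). This is 25.9% of the members. Over all kept genes the groups were apart for 20%, made up of 10.7% with IFNg higher and 9.28% with IFNg lower.

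The libraries numbered 3 stood low for many sterol genes in each group. IFNg 3 was the lowest IFNg library for 21 of 27 members (77.8%), against 38.0% of all kept genes. Control 3 was the lowest control for 13 of 27 (48.1%), against 35.6% of all kept genes. Both held for the same 13 members (48.1%), against 18.2% of all kept genes. This was not particular to the members. Among 17 fatty acid and lipid enzymes under SREBP, a list described below, the same 3 shares were 76.5%, 47.1% and 47.1%. Over all 7 neighbouring lists together, library 3 was lowest in both groups for 23.6% of kept genes. MSMO1 in IFNg 3 was at 59.0% of the mean of IFNg 1 and 2, and in control 3 at 67.1% of the mean of control 1 and 2. ABCA1 was at 81.2% in IFNg 3 and 60.3% in control 3, and HMGCS1 at 65.0% in IFNg 3 and 90.8% in control 3. EBP and PMVK went the other way, with library 3 the highest of both groups. PMVK stood at 128% in IFNg 3 and 138% in control 3, and EBP at 113% in IFNg 3 and 137% in control 3. The part of these libraries in the results was not tested beyond the fits with and without them.

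**Figure D3:**
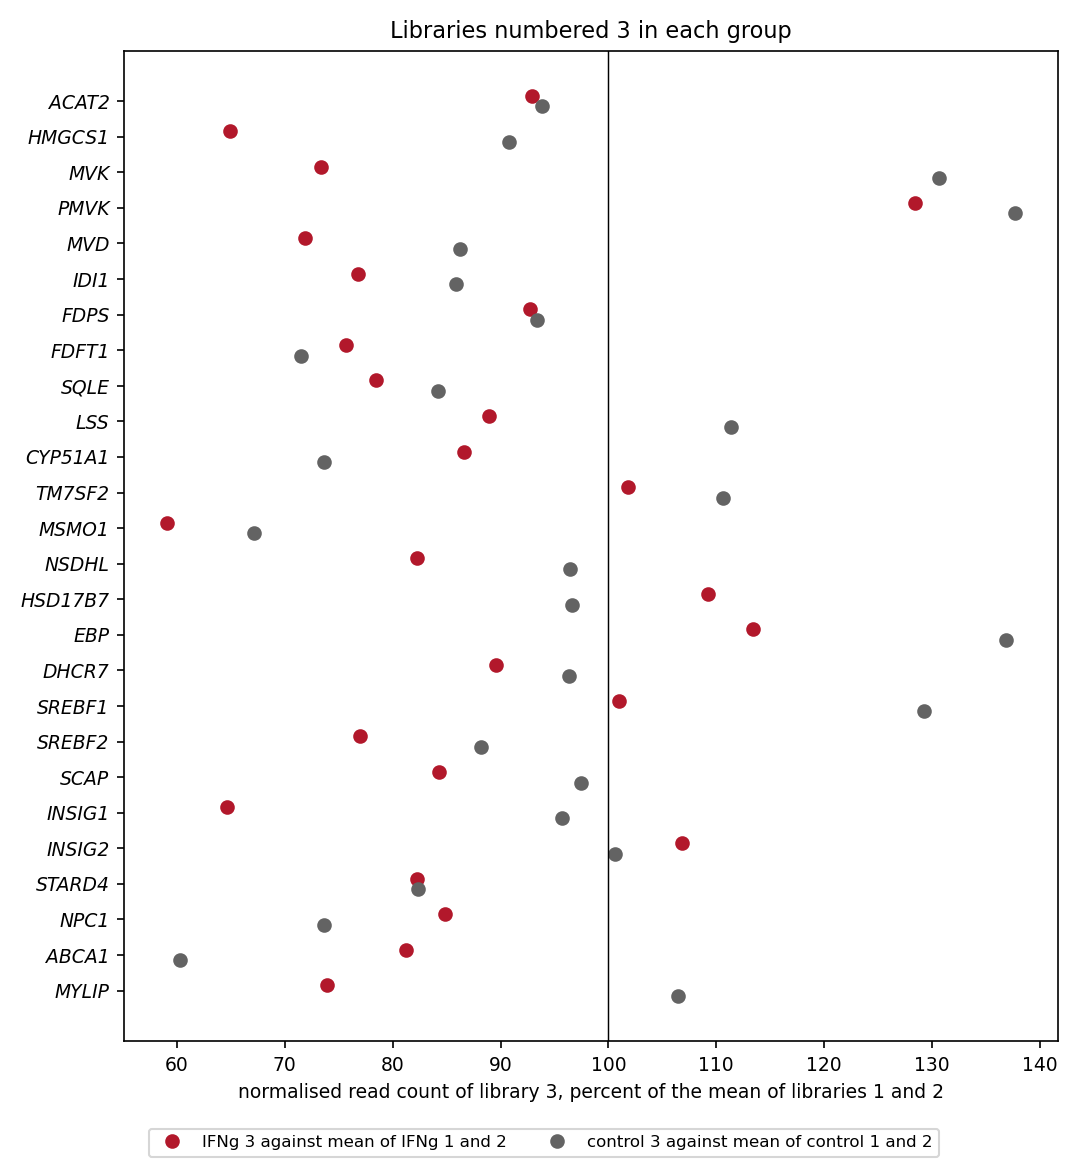
Normalised read count of library 3 as a percent of the mean of libraries 1 and 2 of its group (x axis) for 26 sterol genes (y axis), with IFNg 3 in red and control 3 in grey. Most points lie left of 100 percent, MSMO1 being at 59.0% and 67.1%, while PMVK and EBP lie right of it in both groups. ABCG1, with few reads, is left out.

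Without both libraries numbered 3, with 2 libraries a group, limma called 7 members higher and 1 lower, or 29.6% of the 27, where 5.67% of all kept genes were higher and 3.85% lower (9.53% in either direction). The median log2 difference of the members was then 0.079, and of all kept genes -0.0063. INSIG2, STARD4 and HMGCS1 were again called. The members gained were MVK (0.74 ± 0.16, adjusted p = 0.00846), IDI1 (0.45 ± 0.09, 0.00436), MSMO1 (0.47 ± 0.08, 0.0011), INSIG1 (0.57 ± 0.08, 0.000316) and, as the one lower, ABCA1 (-0.64 ± 0.08, 0.000121). The same 8 members were called by edgeR on these 4 libraries, where 11.7% of genes were called (7.12% higher and 4.63% lower). Limma on all 6 libraries with a term for the libraries numbered 3 called 7 of the 8, all but MVK (adjusted p = 0.0915), where 9.9% of kept genes were called (6.21% higher and 3.69% lower).

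IFNg 3 set against control 3, a single pair with no replicate, gave log2 differences near those of the other libraries for some of these genes and not for others. INSIG2 differed by 0.74 and STARD4 by 0.58 in this pair, close to 0.66 and 0.58 in libraries 1 and 2. HMGCS1 differed by 0.31, IDI1 by 0.29 and MSMO1 by 0.29, in the same direction as the rest but smaller. ABCA1 differed by -0.21, against -0.64 in libraries 1 and 2. For INSIG1 the difference was 0.0086 and for MVK -0.097, so these 2 genes showed no increase in the pair numbered 3.

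A further 7 lists of neighbouring genes, with 112 of 118 entries in the table and 106 kept, were set beside the sterol genes. Together 3 of their genes rose and 2 fell (4.72%, near the 4.32% of all kept genes), with a median log2 difference of -0.012. Of 17 fatty acid and lipid enzymes under SREBP, 0 passed in limma, edgeR or DESeq2 over all 6 libraries. Within this list 0 had an unadjusted p under 0.05 in limma. The largest differences there, at a mean of at least 50, were in ACACB, a mitochondrial-surface acetyl-CoA carboxylase, at 208 ± 61.2 in IFNg and 153 ± 27.7 in control (0.42 ± 0.32, adjusted p = 0.616), and in TMEM97, a sterol-regulated receptor gene, at 1968 ± 306 in IFNg and 1531 ± 464 in control (0.39 ± 0.20, adjusted p = 0.392). TMEM97 was called higher in edgeR without both libraries numbered 3 (0.50, adjusted p = 0.0387), where limma gave 0.0553, and in limma without control 3 (0.0337). ACSS2, named after its values were seen, was called lower in limma with a term for the libraries numbered 3 (-0.31 ± 0.09, adjusted p = 0.0408). Without them ACSS2 was not called (limma 0.0755, edgeR 0.0736). Of 20 genes that process SREBP or sense sterols, 0 passed in limma, edgeR or DESeq2 over all 6 libraries. In limma 1 (5%) had an unadjusted p under 0.05, against 15.3% of all kept genes. The NF-Y subunit gene NFYC was 2826 ± 169 in IFNg and 3518 ± 121 in control, without overlap (-0.32 ± 0.10, limma adjusted p = 0.134). NFYC was called lower without both libraries numbered 3 (-0.39 ± 0.11, limma adjusted p = 0.0338, edgeR 0.0359) and with a term for them (limma 0.0444). ERLIN2 of this list, named after its values were seen, was also called lower without them (-0.34 ± 0.08, limma adjusted p = 0.0176, edgeR 0.0180). ERLIN2 was not called over all 6 libraries (limma 0.466) or with the term (0.259). NFYB was 864 ± 203 in IFNg and 1165 ± 254 in control (-0.43 ± 0.21, 0.372).

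Of 13 kept genes of LXR, RXR and their other targets, 0 rose and 1 (7.69%) fell in each of limma, edgeR and DESeq2. Over all kept genes limma called 4.32% in either direction. In limma 2 of the 13 (15.4%, near the 15.3% of all kept genes) had an unadjusted p under 0.05 in either direction. The median log2 difference was -0.075. SMPDL3A, a phosphodiesterase gene, was 402 ± 141 in IFNg and 527 ± 128 in control (-0.43 ± 0.29, adjusted p = 0.556). Of the 2 kept genes of oxysterol metabolism 0 passed in limma or edgeR, 1 had an unadjusted p under 0.05, and 1 (HSD3B7) passed as higher in DESeq2. HSD3B7, an enzyme of bile acid synthesis from oxysterols, had 607, 724 and 642 in IFNg and 413, 471 and 369 in control, without overlap (0.66 ± 0.20, adjusted p of 0.097 in limma, 0.0669 in edgeR and 0.0278 in DESeq2). With a term for the libraries numbered 3 its limma adjusted p was 0.0417, and without them 0.146.

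Of 28 kept genes of sterol transport, esterification and uptake, 2 rose and 1 fell (10.7%, against 4.32% of all kept genes). In limma 9 (32.1%) had an unadjusted p under 0.05, against 15.3% of all kept genes. Groups did not overlap for 42.9%, with 8 genes higher and 4 lower in IFNg, against 20% of all kept genes. This list thus lay above the shares of all kept genes. GRAMD1C, which encodes Aster-C, a carrier of sterol from the plasma membrane to the endoplasmic reticulum, had 350.3, 506 and 559 in IFNg and 205, 169.5 and 246 in control (1.18 ± 0.27, limma adjusted p = 0.0293). GRAMD3, placed in this list by its name and not shown here to carry sterols, averaged 852 ± 198 in IFNg and 414 ± 42.3 in control (1.02 ± 0.22, adjusted p = 0.0187). NCEH1, a hydrolase of cholesteryl esters, fell to 15790.1, 16239 and 20532 in IFNg, against 23519, 22477 and 24349 in control (-0.43 ± 0.11, adjusted p = 0.042). The groups were apart in each of these 3 genes. Removing IFNg 2, IFNg 3, control 1 or control 2 ended the call of GRAMD1C (highest adjusted p 0.139). Removing IFNg 2, IFNg 3 or control 2 ended that of GRAMD3 (0.11). For NCEH1, removing IFNg 1, IFNg 2, control 1 or control 2 did so (0.208).

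Of 16 genes of isoprenoid branches and prenyl transfer, 1 rose and 0 fell. ICMT, which methylates prenylated proteins, had 10619.7, 10489 and 12789.6 in IFNg and 6574, 6924 and 9453 in control (0.58 ± 0.14, limma adjusted p = 0.0344). All IFNg libraries exceeded all controls, and library 3 was the highest of each group. Removing control 3 kept the call, while removing any of the other 5 libraries ended it (highest adjusted p 0.182). FNTB, a farnesyltransferase subunit gene, averaged 146 ± 16.4 in IFNg and 91.9 ± 55.4 in control (0.93 ± 0.53, adjusted p = 0.462). Of 10 kept other sterol enzymes and helpers 0 passed in limma, edgeR or DESeq2, and 0 had an unadjusted p under 0.05. C5orf4 averaged 51.8 ± 11.9 in IFNg and 93.4 ± 62.6 in control (-0.64 ± 0.54, limma adjusted p = 0.645).

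**Figure D4:**
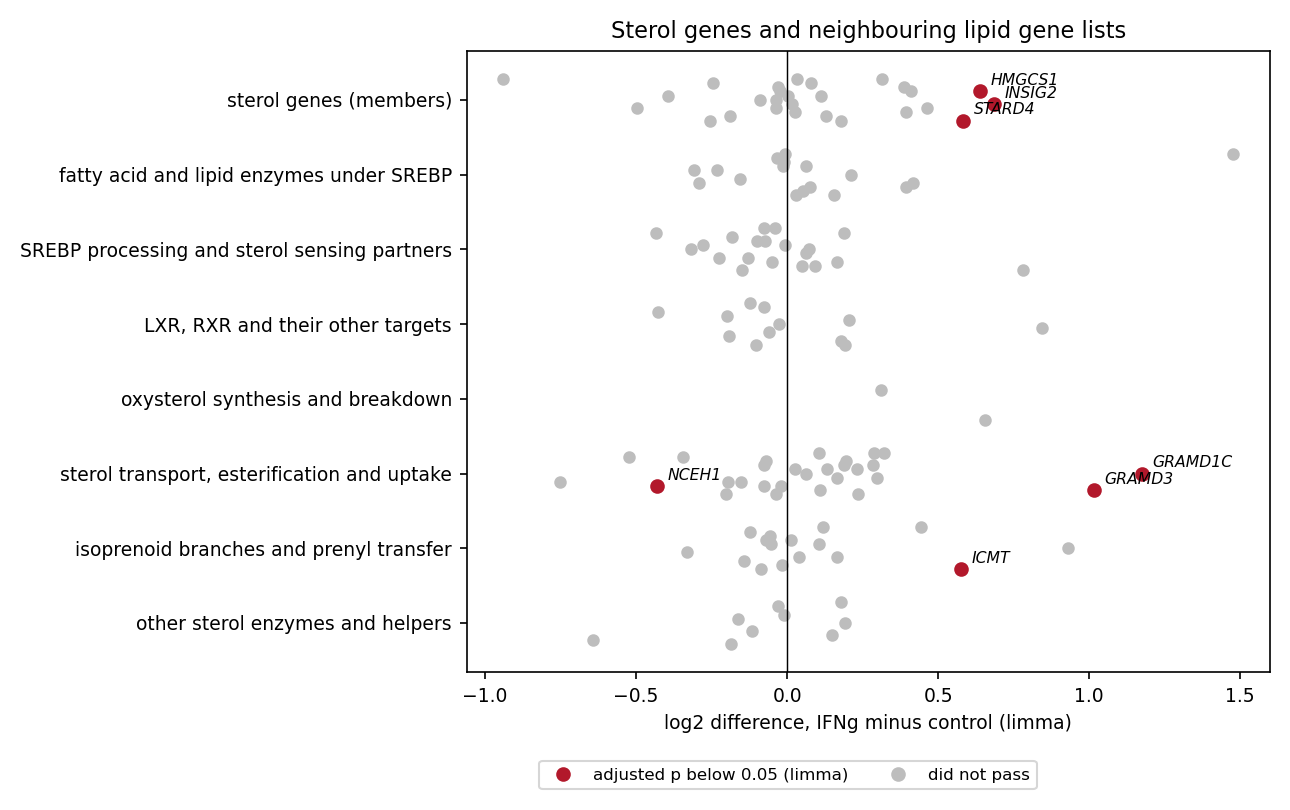
Log2 difference between IFNg and control (x axis, limma, all 6 libraries) for the 27 sterol genes and the reported genes of 7 neighbouring lists (y axis, with points spread vertically for legibility). Red points passed an adjusted p of 0.05 and carry their names: INSIG2, HMGCS1 and STARD4 lie at 0.58 to 0.69, GRAMD1C and GRAMD3 above 1, ICMT at 0.58 and NCEH1 at -0.43.

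Without both libraries numbered 3, these lists had 5 genes higher and 7 lower of 106, or 11.3%, near the 9.53% of all kept genes in that fit (5.67% higher and 3.85% lower). GRAMD1B and SOAT1, among those gained, were also called in DESeq2 over all 6 libraries (adjusted p of 0.0118 and 0.0307) and are named after their values were seen. GRAMD1B, which encodes Aster-B, had 5524, 5928 and 4513 in IFNg and 8269, 8897 and 5951 in control, without overlap, with a log2 difference of -0.52 ± 0.15 over all 6 libraries (limma adjusted p = 0.0862) and -0.58 ± 0.09 without them (0.000686). SOAT1, which esterifies cholesterol for storage, had 7827, 7646 and 8359 in IFNg and 6403, 6122 and 6549.8 in control, without overlap, at 0.32 ± 0.09 over all 6 libraries (adjusted p = 0.0696) and 0.31 ± 0.08 without them (0.037).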

How the data were processed

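Per the labels' protocols, ribosomal RNA was removed from total RNA treated with DNase, and stranded libraries were sequenced as paired ends of 50 cycles. TopHat2 2.0.13, Cuffdiff 2.2.1, Cufflinks and FastQC 0.11.3, and builds hg19 and GRCh37, are named per the submitters' processing notes. How reads were counted, and whether by strand, is not given in the sources used here, so genes with close copies or overlaps are uncertain. The table that the authors deposited is named RPKM, but 100% of its positive values were whole multiples of 1 step per library (tolerance 0.001 reads): the deposited signal is whole reads divided by a size factor, here called normalised read count. One read was worth 0.835 to 1.16 normalised counts.

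Limma 3.58.1 (R 4.3.3) was fitted to log2(value + 1) with a variance trend, group as the only term and 2-sided tests. A gene was kept if its value reached 0.5 in 3 of 6 libraries (15546; 1641 removed). Log2 differences understate the change of low genes. edgeR 4.0.16 (quasi-likelihood, TMM) and DESeq2 1.42.0 on the recovered reads, other pseudocounts, filters and scalings, and fits without each library were alternatives, and edgeR without both libraries numbered 3 was added after seeing the data. edgeR called 665 of 14187 genes. Limma and edgeR over 6 libraries were also run on simulated counts. The simulation gave the libraries numbered 3 no shift of their own and left out DESeq2 and the fits without these libraries. It therefore cannot speak to the calls that depend on them. The members and lists were chosen with earlier results of these data known. Of the lists, genes past the threshold (up to 6) and the 2 largest differences at a mean of at least 50 are named, except genes not reported here, which stay in the counts and are left out of the plot of the lists.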

Additional observations from a re-analysis of the deposited data

How the results depend on the processing

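Among the sterol genes only ABCG1 was barely read. Each other member had 641 or more reads over the 3 IFNg libraries and 857 or more over the 3 controls. What size of change could be called at each depth was not tested. The limma SE was 0.28 for TM7SF2, the least read of these other members, and 0.09 for FDPS. Counts higher and lower in IFNg over all 6 libraries were 509 and 163 for all kept genes, 3 and 0 for the sterol genes and 3 and 2 for the other lists. Pseudocounts, filters and TMM scaling changed the direction or call of no sterol gene, except that ABCG1 left the table with a filter at 10. ABCG1 was also not tested by edgeR over all 6 libraries. Without a variance trend the counts were 279 and 41 for all genes, 1 higher for the sterol genes, and 0 and 0 for the other lists. DESeq2 gave 339 lower over all genes, 1 lower sterol gene and 5 higher in the lists. Without both libraries numbered 3 the counts were 882 and 599, 7 and 1, and 5 and 7. edgeR without them gave 1020 and 663, 7 and 1, and 6 and 7. A term for these libraries gave 966 and 573, 6 and 1, and 6 and 7. Leaving out 1 library gave 330 to 847 higher and 37 to 455 lower over all genes, 1 to 5 higher and 0 to 1 lower among the sterol genes, and 0 to 5 higher and 0 to 5 lower in the lists. The sterol genes higher numbered 1 without control 2, IFNg 1 or IFNg 2 and 5 without IFNg 3. ABCA1 was called lower without control 3. The cause of these changes was not tested.

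Equal numbers in the labels do not state a pairing. Deviations of same-numbered libraries correlated at 0.044, 0.021 and 0.11 over kept genes, and each library correlated best with its own number except IFNg 2 and control 2, which each correlated slightly better with number 1. A replicate block gave 915 higher and 549 lower over all genes, 6 and 1 among the sterol genes (HMGCS1, IDI1, MSMO1, INSIG1, INSIG2 and STARD4 higher, ABCA1 lower), and 6 and 5 in the lists.

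Under these alternatives, signs changed for sterol genes that did not pass and for 0 of the 3 that did. Without both libraries numbered 3 the log2 difference was 0.079 for LSS, -0.062 for CYP51A1 and 0.040 for NSDHL, and in edgeR without them 0.082, -0.054 and 0.045. For EBP it was -0.012 in both edgeR and DESeq2. Leaving out 1 library gave -0.099 to 0.19 for PMVK, -0.20 to 0.097 for FDFT1, -0.14 to 0.024 for LSS, -0.13 to 0.097 for CYP51A1, -0.12 to 0.056 for NSDHL, -0.090 to 0.15 for EBP, -0.0078 to 0.080 for DHCR7, -0.16 to 0.035 for SREBF2 and -0.17 to 0.076 for NPC1.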

Other observations

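SC5DL is an older symbol of SC5D, a desaturase late in cholesterol synthesis, per the RefSeq gene table. The SC5DL row was not counted among the sterol genes, which were matched by current symbol. It had normalised read counts of 3584, 3142 and 2467 in IFNg 1 to 3 and 3102, 2687 and 2452 in control 1 to 3, with overlap and with library 3 the lowest of each group. The log2 difference was 0.15 ± 0.15 (limma adjusted p = 0.719) and 0.22 ± 0.12 without both libraries numbered 3 (0.326).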
